A study of Arabidopsis thaliana with 6 samples.

Results

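The calmodulin-like (CML) genes of Arabidopsis thaliana encode EF-hand proteins that bind calcium. The members described here were chosen by symbol: every probe set that the platform annotation assigns to 1 gene, with a symbol made of CML and a number. This gave 7 genes, CML23, CML30, CML37, CML38, CML41, CML42 and CML43, out of 13513 probe sets with 1 gene. The values used to pick the family were those of the comparison reported here, so the changes, intervals and adjusted p-values of its members describe these arrays and are not independent evidence about the family.

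The 6 samples were whole seedlings of the Columbia ecotype, grown for 10 d on agar medium in long days (16 h light, 8 h dark), and then moved to liquid medium for 8 h. In 3 samples this medium held 1e-07 M 2,4-D, a synthetic auxin, plus 1e-06 M brassinazole, which inhibits brassinosteroid synthesis. In the other 3 it held 1e-07 M 2,4-D alone, so both groups were treated with auxin. Per the labels, 3 seedlings gave the RNA of a batch, which was pooled. The titles call the 3 samples of a group biological replicates. How the pooling relates to these replicates is not stated, so the p-values rest on differences between these arrays that may be partly technical. No sample lacking 2,4-D was analysed here, so the comparison sets auxin plus brassinazole against auxin alone and cannot show the response to auxin.

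Calcium rises in the cytosol within moments of touch, wounding, cold or contact with microbes, and EF-hand sensors turn that rise into protein contacts. Calmodulin is the general sensor, shared by most eukaryotes. Plants have in addition a large set of CML proteins, which diverge from calmodulin in sequence and mostly have no enzyme domain of their own, so they act by binding other proteins. Several CML genes are themselves switched on by the stimuli that raise calcium, and auxin is among the hormones whose signalling involves calcium.

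Of the 7 genes, 6 had a signal bright enough to be tested and 1 of these, CML38, was higher in seedlings given 2,4-D plus brassinazole (adjusted p under 0.05, limma over all 17059 probe sets tested). None of the 6 was lower at that threshold. Over all probe sets tested, 7.52% were called in either direction and 3.44% were called higher. The log2 change was above 0 in 6 of 6 tested members, with a median of 0.14. Over all probe sets tested it was above 0 in 47.3%, with a median of -0.01. For CML30 and CML42 the sign turned when single arrays were left out. A positive change means higher with brassinazole, and changes are on the log2(signal + 16) scale, which understates those of dim probe sets. In whole seedlings, a different number of cells of a type and a different amount of transcript per cell cannot be told apart.

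**Figure D1:**
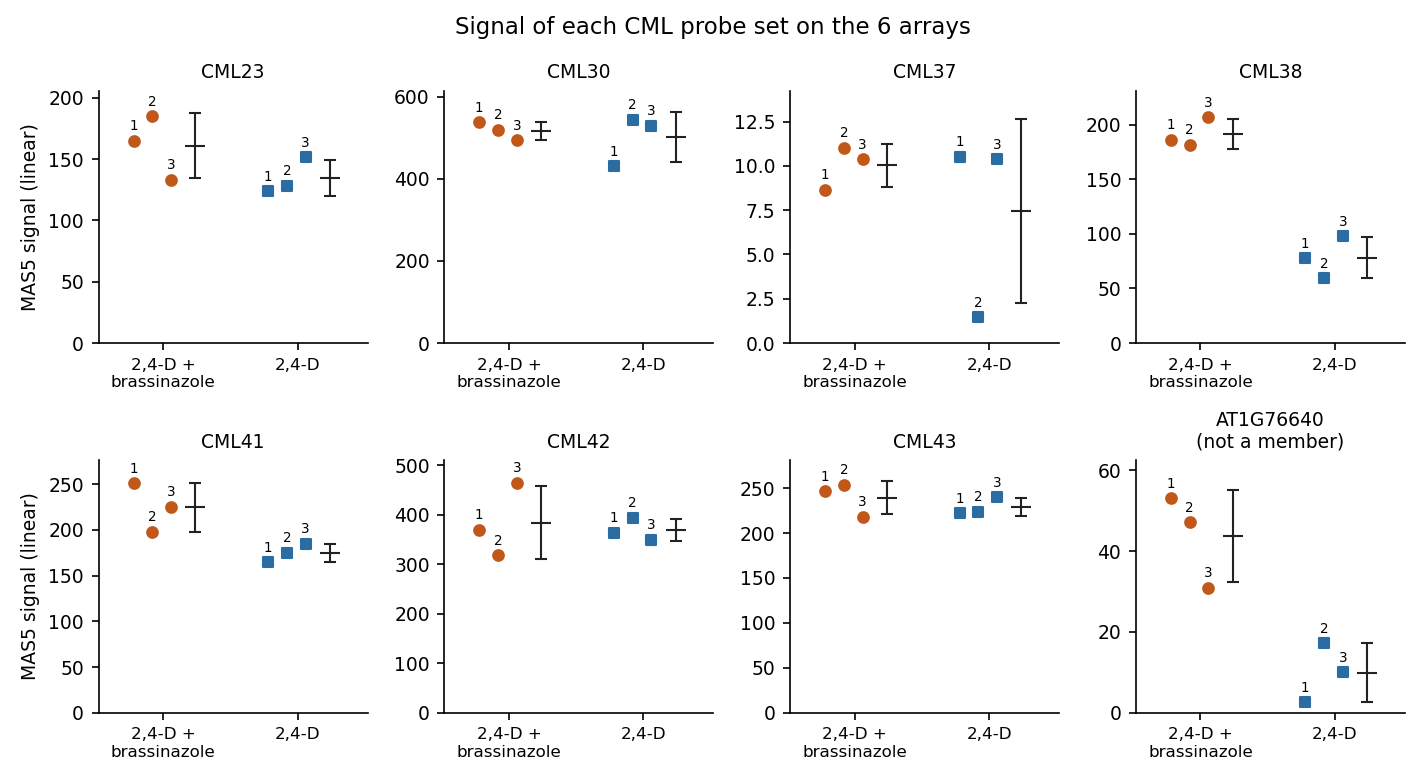
MAS5 signal (linear, each panel with its own axis from 0) of the 7 CML probe sets and of AT1G76640 on the 3 arrays of 2,4-D plus brassinazole (circles) and the 3 of 2,4-D alone (squares), numbered by replicate, with the mean and SD beside them. The CML38 signals of the 2 groups are 83.9 apart at their closest, while those of CML23, CML30, CML37, CML42 and CML43 overlap. Panels are not to be compared in level, since each probe set responds differently to its transcript.

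CML38 is known as a calcium sensor induced by low oxygen and by wounding, whose protein gathers in cytosolic granules in oxygen-starved cells. Its signal was 186, 182 and 207 in seedlings given 2,4-D plus brassinazole, against 77.9, 59.4 and 97.7 in seedlings given 2,4-D alone. All 3 arrays of the first group lay above all 3 of the second, as did 12.9% of all probe sets tested. The means were 192 ± 13.5 with brassinazole and 78.3 ± 19.1 with 2,4-D alone (SD, n = 3 each), a ratio of 2.45. The log2 change was 1.16 ± 0.16 (SE), with a 95% interval of 0.82 to 1.495 and a limma adjusted p of 0.000464. That is a 2.23-fold difference on the offset scale, with an interval of 1.76 to 2.82. Among the 586 probe sets called higher it ranked 22 by the size of the change, with the offset of 16. The relative spread was 7.02% of the mean with brassinazole and 24.4% with 2,4-D alone, where replicate 2 was the lowest array and replicate 3 the highest.

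Some RNA and spike-in controls of the array were also split between the groups, in both directions. The ratio of the 3' to the 5' actin probe set, which rises as RNA is less complete, was 18.8 to 21.1 with brassinazole and 12.3 to 17.3 with 2,4-D alone. The same ratio in the second actin set of the array was 2.21 to 2.43 with brassinazole and 2.31 to 2.52 with 2,4-D alone, so there the groups overlapped. The ubiquitin ratio was split the other way, at 2.59 to 3.00 with brassinazole and 3.14 to 3.54 with 2,4-D alone, and the GAPDH ratio overlapped, at 1.38 to 1.69 with brassinazole and 1.26 to 1.41 with 2,4-D alone. The 5S rRNA control read 230.0 to 284 with brassinazole and 134 to 174 with 2,4-D alone. Of the 3 probe sets for the spiked bioB control, the middle one read 336 to 383 with brassinazole and 267 to 315 with 2,4-D alone and the 5' one 265 to 282 with brassinazole and 229 to 245 with 2,4-D alone, while the 3' one overlapped. The part of these differences in the CML38 result was not tested. The auxin 1 array stood apart in its 25S rRNA control, at 981 against 174 to 215 on the other 5 arrays, and brassinazole 3 had the highest middle bioB signal, at 383 against 336 and 342 on the other brassinazole arrays. Without both of these arrays the CML38 change was 1.11 (limma adjusted p = 0.0122).

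AT1G76640, which RefSeq also lists under the synonym CML39, is the gene next to CML38 in the RefSeq order of chromosome genes. It is not a member, because the platform gives it no CML symbol, and it was picked out after its values were seen. Its signal was 53.1, 47.2 and 30.9 with brassinazole, against 2.65, 17.2 and 10.0 with 2,4-D alone. The groups did not overlap, with means of 43.7 ± 11.5 with brassinazole and 9.95 ± 7.26 with 2,4-D alone (SD, n = 3 each). Among probe sets bright enough for testing, 12.9% had all brassinazole values above all auxin values. The mean of AT1G76640 lay under that brightness. When every probe set was tested, its log2 change was 1.22 ± 0.26 (SE, limma adjusted p = 0.0340), in a fit that called 1.77% of probe sets higher. Leaving out single arrays, a choice made after the values were seen, ended that call for auxin 1 (adjusted p = 0.105), auxin 3 (0.101), brassinazole 1 (0.115) and brassinazole 2 (0.120). Whether the probes for CML38, AT1G76640 and CML37, which are closely related genes, bind each other's transcripts was not tested.

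CML37 takes part in the jasmonate response to leaf-eating insects and to wounding. Its signal was 8.66, 11.03 and 10.4 with brassinazole, against 10.5, 1.44 and 10.4 with 2,4-D alone. All 6 values were far below 34.2, the signal that corresponds to the mean log2 value of the dimmest probe set tested, and the groups overlapped. With every probe set tested, its log2 change was 0.18 ± 0.21 (SE, limma adjusted p = 0.752), so no difference was detectable at this brightness.

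CML41 sits at plasmodesmata, the channels between plant cells, and promotes their closure by callose during immune responses. Its signal was 251, 198 and 226 with brassinazole, against 165, 175 and 185 with 2,4-D alone. The groups did not overlap, but the gap between brassinazole 2 and auxin 3 was only 12.9. The log2 change was 0.33 ± 0.12 (SE), with a 95% interval of 0.07 to 0.59 and an unadjusted limma p of 0.0154. Of all probe sets tested, 12.9% likewise had all brassinazole values above all auxin values, and 21.9% had an unadjusted p under 0.05. CML41 did not pass the adjustment over all probe sets (limma adjusted p = 0.116). Nor did it pass under any of the 15 alternative settings tried, where the adjusted p ran between 0.0921 and 0.321.

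CML23 is a close relative of the touch-induced gene TCH2 (CML24), and both affect flowering time and nitric oxide in the plant. Its signal was 165, 185 and 133 with brassinazole, against 124, 128 and 152 with 2,4-D alone. Replicates 1 and 2 with brassinazole lay above all auxin arrays, while replicate 3 fell among them. The log2 change was 0.23 ± 0.14 (SE), with a 95% interval of -0.08 to 0.53 (limma adjusted p = 0.389).

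**Figure D2:**
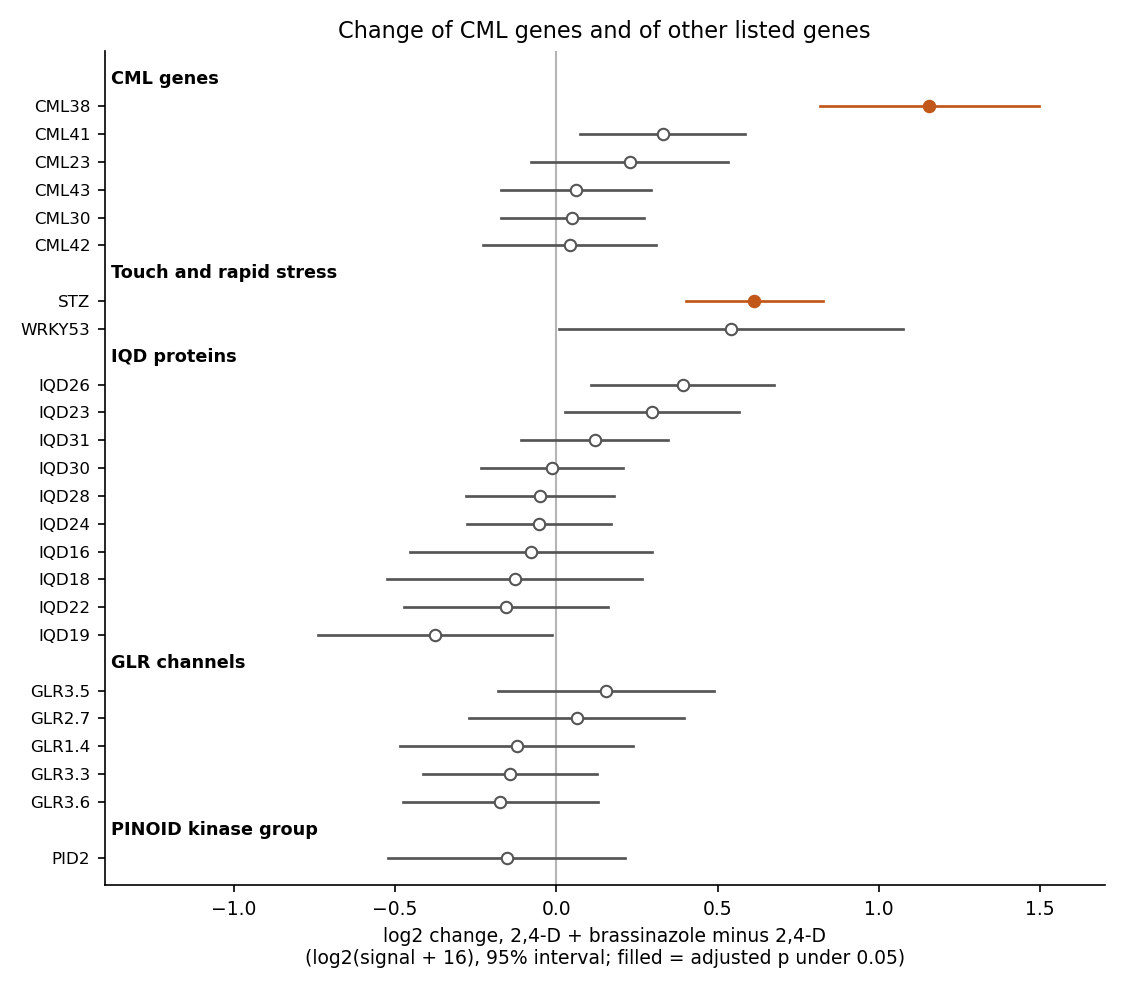
Log2 change (2,4-D plus brassinazole minus 2,4-D alone, on log2(signal + 16)) with its 95% interval for the 6 tested CML genes and for the tested members of the other lists, 1 gene to a line. Filled points passed an adjusted p of 0.05. CML38 at 1.16 and STZ at 0.61 are the filled points.

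The remaining 3 members had log2 changes of at most 0.06, and their groups overlapped. CML43 is expressed mainly at the root tip and is induced during the hypersensitive defence response. It read 246, 254 and 218 with brassinazole, against 222, 224 and 240.0 with 2,4-D alone. The values interleave, and the log2 change was 0.06 ± 0.11 (SE), with an interval of -0.17 to 0.29 (limma adjusted p = 0.802).

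CML30 encodes a protein reported in mitochondria. It read 538, 519 and 493 with brassinazole, against 431, 544 and 529 with 2,4-D alone. Auxin 1 was the low array, and the log2 change of 0.05 ± 0.10 (SE, limma adjusted p = 0.839) turned to -0.05 when that array was left out. Its interval was -0.17 to 0.27.

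CML42, which binds the calcium sensor KIC, affects the branching of leaf hairs and lowers defence against leaf-eating insects. It read 369.9, 318 and 465 with brassinazole, against 364, 394 and 349.5 with 2,4-D alone. Brassinazole 2 was the lowest of the 6 arrays and brassinazole 3 the highest, so the spread was 19.3% of the mean with brassinazole and 6.19% with 2,4-D alone. The log2 change was 0.04 ± 0.12 (SE), with an interval of -0.23 to 0.31 (limma adjusted p = 0.893), and it was -0.10 without brassinazole 3. For CML43, CML30 and CML42, the intervals on the offset scale reach up to 1.22-fold, 1.21-fold and 1.24-fold. Downward they reach 0.889-fold, 0.887-fold and 0.855-fold, so these data do not show that the genes stayed level.

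Over the brassinazole arrays, the members did not all move together. The auxin arrays were not compared in this way. Measured from the mean of the auxin arrays, brassinazole 3 was the highest of its group for CML38 (1.26 on the log2 scale) and for CML42 (0.32), but the lowest for CML23 (-0.01), CML30 (-0.01) and CML43 (-0.06). Brassinazole 2 was the highest for CML23 (0.42) and CML43 (0.14), and the lowest for CML38 (1.09), CML41 (0.16) and CML42 (-0.20). No brassinazole array was therefore highest for all tested members, though some members shared an order of arrays.

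**Figure D3:**
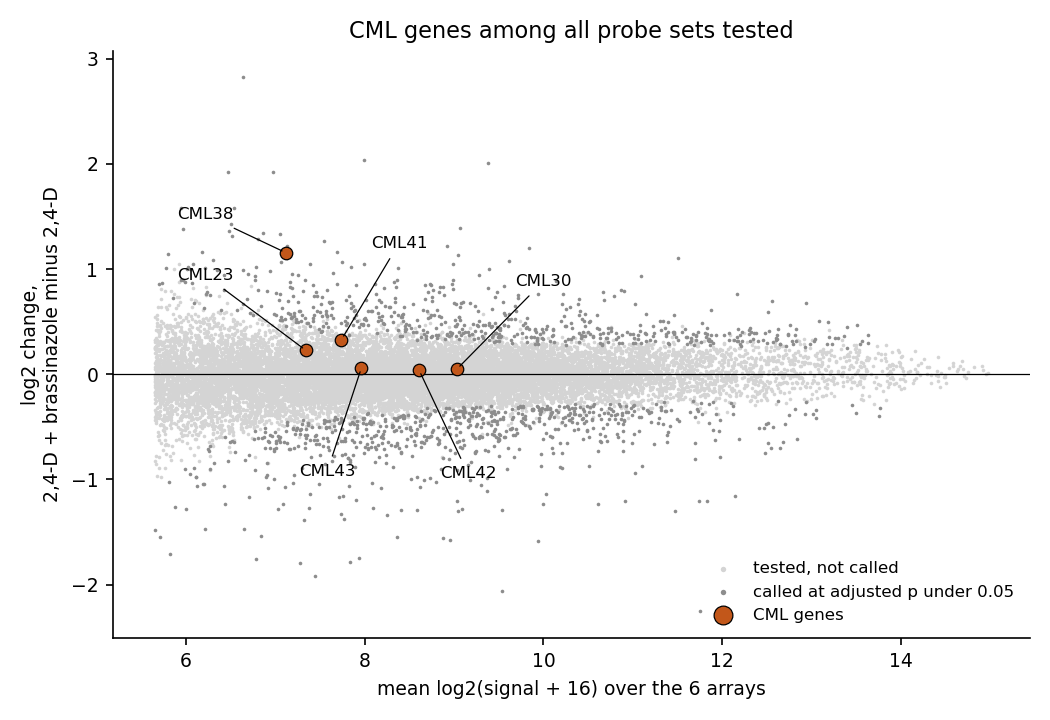
Mean log2(signal + 16) over the 6 arrays (horizontal axis) against the log2 change, 2,4-D plus brassinazole minus 2,4-D alone (vertical axis), for the 17059 probe sets tested. Dark grey points passed an adjusted p of 0.05, and the 6 tested CML genes are circled and named. CML38 lies at 1.16 among the called probe sets, and the other 5 lie between 0.04 and 0.33 among those not called.

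Other genes of calcium signalling were looked for in 11 lists, written by symbol, and 4 of these had a named probe set. Canonical calmodulins, CBL sensors with their CIPK kinases, CDPK kinases, calcium pumps and exchangers, calmodulin-binding transcription factors and annexins had none, and are not analysed here. Neither are 6 further RefSeq genes with a CML number as symbol or synonym, among them TCH2 and TCH3. Any CML gene that RefSeq lists without such a number was not counted. The members described are thus the part of the family that the annotation names, and may not represent it.

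Glutamate receptor-like proteins (GLR), ion channels that can pass calcium, had 5 tested members. Of these 0 passed with limma, against 7.52% of all probe sets tested, and 0 had an unadjusted p under 0.05, against 21.9%. Their median log2 change was -0.12, against -0.01 over all probe sets tested. So few members cannot show that these genes stayed level. GLR3.6 read 123 ± 4.74 with brassinazole and 142 ± 23.8 with 2,4-D alone (limma adjusted p = 0.526). GLR3.3, which carries wound signals between leaves, read 387 ± 67.5 with brassinazole and 427 ± 48.7 with 2,4-D alone (limma adjusted p = 0.563; SD, n = 3 each).

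IQD proteins, calmodulin-binding scaffolds along microtubules, had 10 tested members. With limma 0 passed, against 7.52% of all probe sets tested, and 3 of the 10 had an unadjusted p under 0.05, against 21.9%. Their median log2 change was -0.05, against -0.01 over all probe sets tested. IQD26 read 150.4 ± 9.12 with brassinazole and 111 ± 12.1 with 2,4-D alone, a log2 change of 0.39 (limma adjusted p = 0.0935). IQD23 read 183 ± 22.7 with brassinazole and 145 ± 3.40 with 2,4-D alone, a change of 0.30 (limma adjusted p = 0.179), and IQD19, the other of the 3, changed by -0.38 (limma adjusted p = 0.209). PID2, a kinase related to the auxin transport regulator PINOID, was at 62.1 ± 10.1 with brassinazole and 70.5 ± 3.00 with 2,4-D alone (limma adjusted p = 0.666; SD, n = 3 each).

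Of the listed genes that touch, wounding or other handling raise within minutes, 2 had a probe set assigned to 1 gene and were tested. STZ, also called ZAT10, a zinc-finger repressor in stress responses, read 577, 554 and 490.1 with brassinazole, against 325, 345 and 372 with 2,4-D alone. All brassinazole values lay above all auxin values, as in 12.9% of all probe sets tested. STZ was higher by 0.61 ± 0.10 on the log2 scale (SE, limma adjusted p = 0.00159). WRKY53, a transcription factor of defence and leaf ageing, read 49.8, 55.8 and 69.0 with brassinazole, against 51.0, 18.7 and 40.05 with 2,4-D alone. Its groups overlapped, with a change of 0.54 ± 0.25 (SE, limma adjusted p = 0.221).

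The labelled tissue was checked with 4 named markers out of 16 listed. The leaf marker RCA, Rubisco activase, read 26083 ± 3053 with brassinazole and 25003 ± 666 with 2,4-D alone, and the root beta-glucosidase PYK10 read 15908 ± 1430.1 with brassinazole and 15032 ± 2088 with 2,4-D alone (SD, n = 3 each). Transcripts of both shoot and root were thus present in both groups. The root hair expansins EXPA7 and EXPA18 read 154 ± 7.65 and 188 ± 22.2 with brassinazole, and 205 ± 27.2 and 264 ± 51.9 with 2,4-D alone (limma adjusted p = 0.0916 and 0.0806). For both, all brassinazole values lay below all auxin values, an order whose share over all probe sets is not given here. Their unadjusted limma p was 0.0103 and 0.00816, and 21.9% of all probe sets tested had one under 0.05. Whether the make-up of the tissue differed between the groups, and what part it had in the CML values, was not tested.

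**Figure D4:**
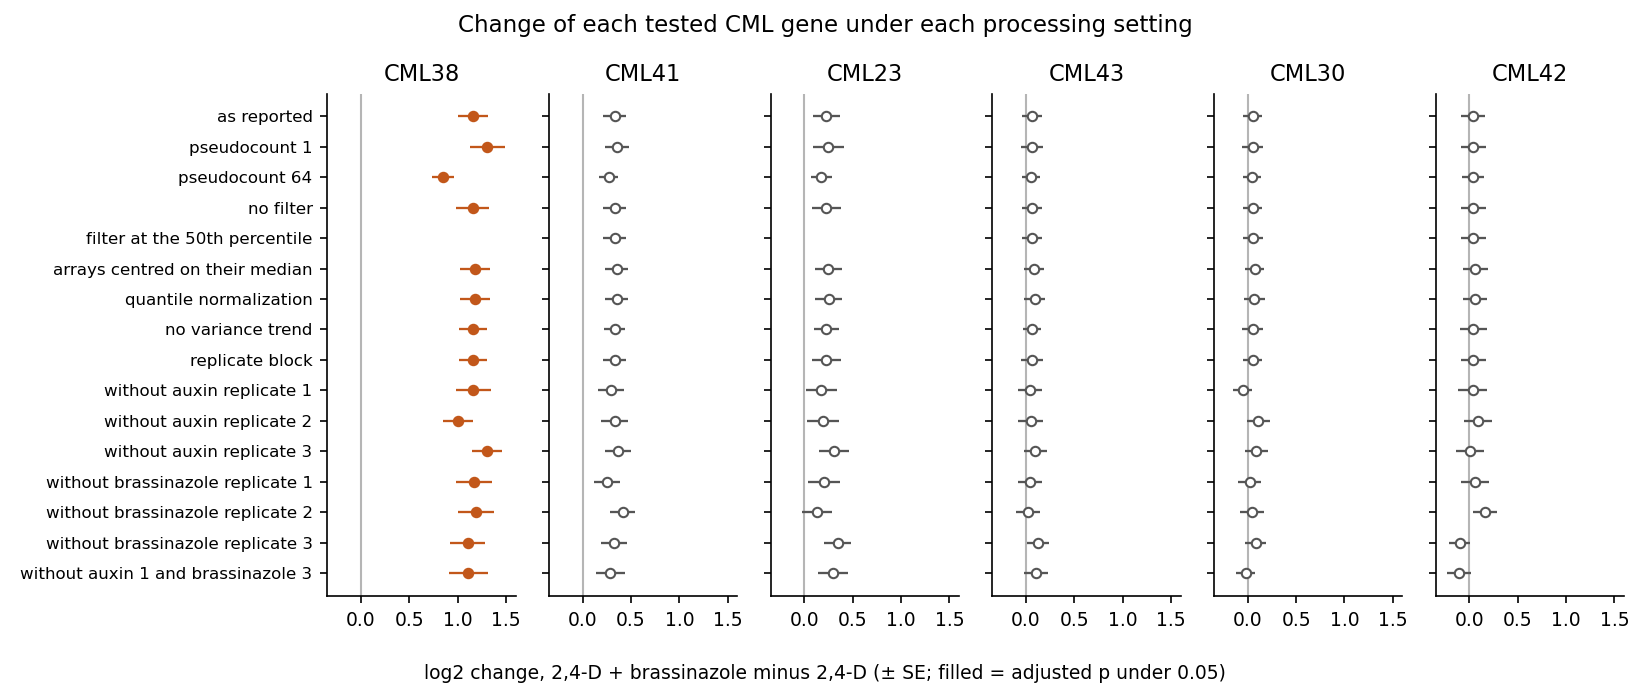
Log2 change (± SE, 2,4-D plus brassinazole minus 2,4-D alone) of each tested CML gene as reported and under 15 alternative settings, 1 setting to a line. Filled points passed an adjusted p of 0.05. CML38 lies between 0.85 and 1.31 and is filled wherever it was tested, and no other member is filled; a missing point means the probe set fell under the filter.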

How the data were processed

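For each probe set and array the authors deposited 1 intensity on a linear scale, computed with MAS5, per the submitters' processing notes. Sources used here give no MAS5 version, detection calls or genome build. The mean over the middle 96% of signals was 500.0 on all 6 arrays, so they had been scaled to a common level. The number of arrays, 3 per group, limits the precision. The sample titles gave the groups and the replicate numbers.

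Of 22810 probe sets, 64 controls were set aside. Gene names came from the platform annotation (13513 probe sets with 1 gene, 503 with several, 8794 with no entry), and 13436 of the first matched RefSeq genes of TAIR10.1 by gene ID. Signals were taken as log2(signal + 16), and probe sets with a mean under the 25th percentile were left out. The 17059 probe sets left were fitted in limma 3.58.1 (R 4.3.3; lmFit, then eBayes, trend on), and two-sided p-values were adjusted over all of them by the Benjamini-Hochberg method. The fit and the adjustment, but not the filter, were tested on simulated data with independent normal noise. The size of that noise came from the fit itself, so the simulation cannot show how well the adjusted p-values hold on these arrays.

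The members, lists and tests were chosen with earlier results of these data known. All members were named. Per-array values were given for every member, and from each list the members past the threshold were named, or else the 2 with the smallest p. IQD19, WRKY53 and AT1G76640 were named after their values were seen. Between samples of the same replicate number, deviations from the group means correlated by 0.04, 0.06 and 0.05. The main fit treated the samples as unpaired, but these correlations cannot show whether they were grown or handled in pairs. Alternatives changed the pseudocount, filter, scaling, variance trend, replicate block and arrays used. No sequences are printed.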

Additional observations from a re-analysis of the deposited data

How the results depend on the processing

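CML38 was called higher, and was the 1 member called, under 14 of 15 alternatives (log2 change 0.85 to 1.31, limma adjusted p 0.000289 to 0.0122). With a filter at the 50th percentile it was left out for its brightness, and 0 members were called. No alternative called CML23, CML30, CML41, CML42 or CML43. With single arrays left out, the CML30 change ran from -0.053 (without auxin replicate 1) to 0.11 and that of CML42 from -0.0992 (without brassinazole replicate 3) to 0.163. Without both of these arrays they were -0.021 and -0.108. STZ stayed called under all 15 (adjusted p 0.00085 to 0.013).

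Over all probe sets, 1282 were called, 586 higher and 696 lower. Turning off the variance trend gave 755, 316 and 439, and leaving out the pair of arrays 815, 355 and 460. With single arrays left out they were 821 to 1157, 338 to 527 and 452 to 630. Fewer arrays by themselves give fewer calls. With arrays centred on their median, 676 were higher and 609 lower. With the replicate block, 1280 were called and the adjusted p of CML38 was 0.000806. Scaling moved the median change of all probe sets by under 0.1, between -0.01 and 0.01.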
